A study of Mus musculus with 16 samples.

Results

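Ccl17, Ccl22 and Cxcl16, 3 of the 32285 genes counted in the series, encode chemokines that mature dendritic cells (DCs) make in lymph nodes (LN). They were chosen by name, and their RNA was read in mature DCs of liver-draining LN during 3,5-diethoxycarbonyl-1,4-dihydrocollidine (DDC) feeding, a diet that causes cholestasis. A cell was taken as a mature DC when it held at least 1 UMI (unique molecular identifier, a count of 1 captured RNA molecule) each of Ccr7 and Fscn1 and none of Cd3e and Cd79a. The mature DCs were divided by surface protein, read as antibody tags in the same cells (CITE-seq). CD301b+ and XCR1+ DCs carried at least 10% of their antibody UMIs on the respective antibody, and the remaining mature DCs are called neither.

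Of the 16 samples, 12 were used, the RNA and tag libraries of 3 CITE-seq runs and of 3 pools of γδ T cells. The CITE-seq libraries came from pooled hepatoduodenal and celiac LN of C57BL/6J mice at D0 (no DDC), D5 and D19 of chow with 0.1% DDC, mixed from sorted live, CD45+ Itgax-, CD45+ Itgax+, Pdpn+ and CD45- Pdpn- cells. The library titled D5 was described as day 6. The γδ T cell pools had been sorted as live CD45+ CD3e+ TCRβ- TCRγδ+ cells of LN and marked with hashtags, D0 with D5 in 1 pool and D19 with STOP in another, whose D19 arm was also described as day 18. STOP mice had 18 days of diet and 7 days of recovery, and D5-DT mice were Mgl2-DTR animals with 5 days of diet and diphtheria toxin on days -1 and 2. The toxin is aimed at cells that express Mgl2, which encodes CD301b, and not at DCs alone. The D5-DT arm joined the Mgl2-DTR genotype with the toxin. Its cells also formed a pool of their own with liver cells, so that genotype, toxin and pool cannot be told apart. Mice used for single-cell sequencing were male, the age range stated for the study was 6 to 12 weeks, and the number of mice per library was not stated. Each day and each arm was measured in 1 library or 1 hashtag arm, without replicates.

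CCL17 and CCL22 are secreted chemokines that share the receptor CCR4, found on regulatory and type 2 helper T cells among others. CXCL16 is made as a membrane protein that binds CXCR6 on effector, innate-like and NK T cells, and the proteases ADAM10 and ADAM17 shed it. DCs that mature raise CCR7, migrate to the T cell zone of the LN and meet T cells there. CD301b marks a subset of type 2 conventional DCs (cDC2), and XCR1 marks type 1 conventional DCs (cDC1).

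Ccl17 and Ccl22 are neighbours on chromosome 8, and the stretch before an annotated transcription start is shown for Ccl17, whose level differed between DC subsets, and for its neighbour Ccl22. In the RefSeq annotation of GRCm38.p6, Ccl22 (ENSMUSG00000031779) spans chr8:94745684-94751388, Ccl17 (ENSMUSG00000031780) spans chr8:94809380-94812038, and 57991 bases lie between them. Cxcl16 (ENSMUSG00000018920) lies apart at chr11:70454389-70459984. The start used for Ccl22 is that of the gene, while the start used for Ccl17, at 94810453, lies 1073 bases inside the gene's span, so the Ccl17 stretch lies within the span and not before it. The 250 bases before these starts are printed for the plus strand, chr8:94810203-94810452 for Ccl17 and chr8:94745434-94745683 for Ccl22. Capitals mark matches to STAT-type letters before Ccl17 (TTC and GAA parted by any 3 or 4 bases) and to κB-type letters before Ccl22 (GGG and CC parted by any 5 bases), both strands being searched.
Ccl17 upstream: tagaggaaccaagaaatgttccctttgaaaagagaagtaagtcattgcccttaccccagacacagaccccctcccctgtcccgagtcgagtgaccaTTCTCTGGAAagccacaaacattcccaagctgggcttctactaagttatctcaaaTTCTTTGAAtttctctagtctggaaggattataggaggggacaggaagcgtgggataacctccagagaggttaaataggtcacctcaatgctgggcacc
Ccl22 upstream: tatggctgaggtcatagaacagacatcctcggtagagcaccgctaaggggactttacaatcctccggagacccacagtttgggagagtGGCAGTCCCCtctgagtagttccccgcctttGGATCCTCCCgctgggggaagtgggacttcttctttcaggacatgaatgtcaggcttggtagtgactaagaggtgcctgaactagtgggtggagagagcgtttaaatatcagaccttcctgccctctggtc
The STAT-type matches lay 99 to 91 and 154 to 145 bases before the start used for Ccl17, and the κB-type matches 162 to 153 and 131 to 122 bases before that of Ccl22. Neither gene held the letters of the other in this window. Of 32851 RefSeq promoters of the same length, 7.02% held the STAT-type letters with 3 bases between, 5.85% those with 4 and 45.8% the κB-type letters. Ccl17 also held the ETS-type letters GAGGAA, present in 23.3% of promoters, and neither gene held the AP-1 letters TGANTCA, present in 6.75%. These matches are descriptions of the letters and not of binding.

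The split into subsets rested on the barcodes of the CD301b and XCR1 antibodies, which the deposited feature tables give as follows.
CD301b antibody tag: cttgccttgcgattt
XCR1 antibody tag: tccattacccacgtt
The RNA of Mgl2 and Xcr1, the genes of these proteins, would not have given this split. Mgl2 was counted 0, 0 and 1 times in CD301b+ DCs at D0, D5 and D19, and Xcr1 5, 1 and 17 times in XCR1+ DCs. CD11b, which marks cDC2 among other cells, was lowest in XCR1+ DCs in each library. The median share of antibody UMIs on CD11b was 56.3%, 54.0% and 52.1% in CD301b+ DCs and 4.05%, 8.67% and 8.68% in XCR1+ DCs. In neither DCs it was 47.1%, 56.7% and 73.6%, above CD301b+ DCs at D5 and D19. CD11b thus did not set CD301b+ apart from neither DCs. Shares are of unequal totals, the median number of antibody UMIs being 1123, 2523 and 1009 in CD301b+ DCs and 383, 418 and 181.5 in XCR1+ DCs.

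RNA totals were 45317389, 47653941 and 32013882 UMIs in the D0, D5 and D19 CITE-seq libraries and 13074668 to 71447265 UMIs in the γδ T cell pools. The gate held 273 of 6200, 438 of 5936 and 879 of 6388 cells, or 4.40%, 7.38% and 13.8%, at median depths of 6576, 7738 and 4341 UMIs. Levels are CPM, the UMIs of a gene scaled to a fixed total of UMIs summed over the cells of a group, with 95% exact Poisson intervals. All intervals cover counting error only and leave out variation between cells, mice and libraries. Any 2 libraries shared at most 21 cell barcodes. The gate was not uniform. Cells of 1 cluster led by Ifitm1 and Cfp, of which 16.7% passed it, made up 20.1%, 10.96% and 1.82% of gated cells at D0, D5 and D19 (55, 48 and 16 cells, of which 0, 1 and 1 were CD301b+ and none XCR1+), and levels are therefore also given by cluster. The summed monocyte or macrophage markers fell alongside, at 282, 156 and 78.3 CPM with none of the 5 at 0, and the 5 T cell markers were at 106, 54.7 and 46.9 CPM with Cd3e at 0 by the gate.

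In these mixtures of sorted fractions, which included an Itgax+ fraction, mature DCs held most UMIs of all 3 chemokines. They held 58.3%, 58.0% and 79.6% of the Ccl17 UMIs of all cells at D0, D5 and D19. For Ccl22 the shares were 75.5%, 71.1% and 79.0%, and for Cxcl16 61.3%, 75.4% and 76.1%. These shares stood against 4.40% to 13.8% of the cells. Ccl17 was low in lymphocytes, at 2.46, 10.6 and 19.3 CPM in T cells and 2.12, 3.86 and 10.6 CPM in B cells. NK cells held 0 UMIs of it in each library. Only 148 of 254 Ccl17 UMIs at D0 and 428 of 738 at D5 lay in mature DCs. Cells assigned to no lineage numbered 341, 274 and 455, and their levels are not given. Resident cDC1 at D5 stood out at 115 CPM of Ccl17, but all 44 UMIs were in 1 cell. Ccl22 was also low in T cells, with 9.86, 14.0 and 23.1 CPM, and none was counted in resident cDC1. Outside mature DCs Cxcl16 reached 110, 83.5 and 90.8 CPM in resident cDC1 and 70.1, 99.2 and 159 CPM in monocytes or macrophages, although the latter rested on 20 to 29 cells per library. Barcodes with under 100 UMIs, which hold free RNA, gave 19.3, 22.01 and 142 CPM of Ccl17, 32.5, 35.3 and 90.8 CPM of Ccl22 and 77.4, 93.0 and 222 CPM of Cxcl16. T and B cells lay below these levels for each of the 3 genes, as did Cxcl16 in resident cDC1 at D5 and D19 and in monocytes or macrophages at D0 and D19. This cannot tell whether their UMIs were free RNA, since free RNA makes up only a part of the UMIs of a cell. Free RNA was estimated at 3.16%, 4.185% and 1.64% of the UMIs of mature DCs, and its part in the low values of other lineages was not tested.

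**Figure D1:**
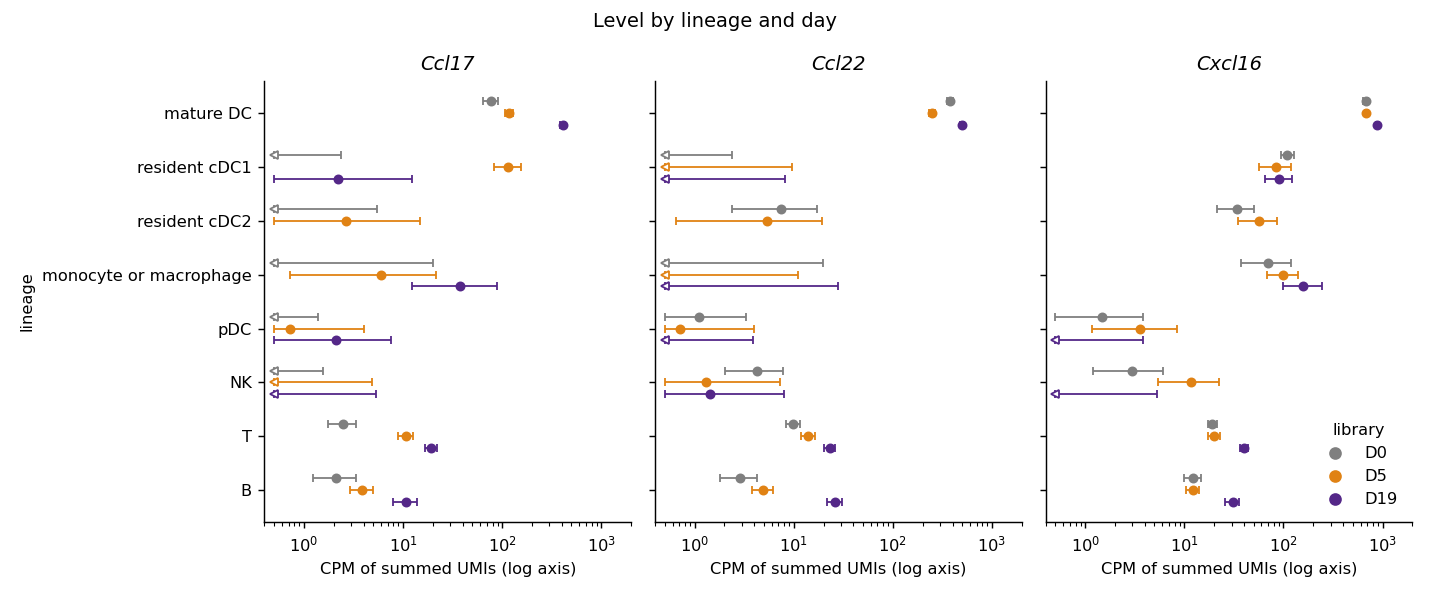
Levels of the 3 chemokines (CPM of summed UMIs, log axis) by cell lineage in the D0, D5 and D19 CITE-seq libraries, with points for each library, 95% Poisson intervals and open arrows for groups with 0 UMIs. Of the lineages shown, mature DCs were highest for each gene in each library, at 76.4 to 406 CPM of Ccl17, 248 to 496 CPM of Ccl22 and 676 to 882 CPM of Cxcl16.

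The time course asked how the chemokine output of LN DCs changed as cholestasis went on. Over all mature DCs the Ccl17 level of D0 was 76.4 CPM (64.6 to 89.7), followed by 117 at D5 (106 to 129) and 406 at D19 (387 to 426). It was thus highest at D19, 5.32-fold above D0 (log2 ratio 2.41, interval 2.17 to 2.66). Ccl22 was counted at 380 CPM (353 to 409), 248 (232 to 264) and 496 (475 to 517), lowest at D5. Its log2 ratio was -0.62 for D5 over D0 (-0.76 to -0.48) and it was 2.00-fold higher at D19 than at D5 (log2 interval 0.89 to 1.12). Cxcl16 had the most UMIs of the 3 and the narrowest range over the days, at 676 CPM (640 to 714), 685 (659 to 713) and 882 (853 to 910). Between D5 and D0 the Cxcl16 ratio was 0.02 (-0.08 to 0.12), and between D19 and D0 it was 0.38 (0.29 to 0.47), as for Ccl22 (0.38, 0.26 to 0.51).

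These are single libraries, and the ratios carry no test. Only Ccl17 of the 3 was at least 2-fold higher at D19 than at D0, a size that 7.33% of 9368 genes reached, and none was 2-fold lower, against 9.48%. None of the 3 was 2-fold higher at D5 than at D0, against 6.19% of all genes, or 2-fold lower, against 3.68%. From D5 to D19 Ccl17 and Ccl22 were at least 2-fold higher, against 2.95% of all genes, and none was 2-fold lower, against 7.57%. Ccl22 was just at that size and fell short of it without the Ifitm1 and Cfp cluster (log2 0.82) and with clusters in place of the gate (0.72). After each cell was thinned to 1000 UMIs, 6.23%, 7.08% and 24.8% of mature DCs held a Ccl17 UMI, 23.4%, 12.6% and 26.8% a Ccl22 UMI and 48.0%, 47.0% and 57.0% a Cxcl16 UMI. Without thinning the shares were 18.3%, 26.0% and 52.9% for Ccl17, 49.1%, 37.0% and 53.9% for Ccl22 and 79.9%, 91.6% and 92.9% for Cxcl16. In T cells, at median depths of 5398, 6329.5 and 3670 UMIs, thinned shares were at most 0.702% for Ccl17, 0.624% for Ccl22 and 1.75% for Cxcl16.

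The order of days depended on which gated cells were counted. When mature DCs were taken as the clusters in which most cells passed the gate, the D19 over D0 log2 ratio was 1.82 for Ccl17 but was -0.13 for Ccl22 and -0.02 for Cxcl16. In the largest cluster of gated cells, led by Clu, Ccl17 was counted at 133, 142 and 456 CPM, Ccl22 at 573, 265 and 510 CPM and Cxcl16 at 941, 786 and 921 CPM. This cluster held 45.4%, 78.5% and 86.9% of gated cells. A further cluster, led by Pla2g7 and Dnah2, held 30.4%, 7.31% and 9.67% and had Ccl17 at 66.7, 140 and 146 CPM and Ccl22 at 549, 756 and 641 CPM. Cells of the Ifitm1 and Cfp cluster had little Ccl17, at 0, 7.42 and 47.2 CPM, and little Ccl22, at 8.16, 16.7 and 47.2 CPM. Their Cxcl16 was at 95.9, 228 and 424 CPM, below that of the Clu cluster on each day. The lower Ccl22 and Cxcl16 of all mature DCs at D0 than at D19 lay beside a larger share of these cells, while Ccl22 was lowest at D5, where that share lay between the other days. The part of these cells in the levels was not tested. The rise of Ccl17 between D5 and D19 was present within the largest cluster. It was not seen within the Pla2g7 cluster, at 140 CPM (93.5 to 200) and 146 CPM (108 to 193).

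**Figure D2:**
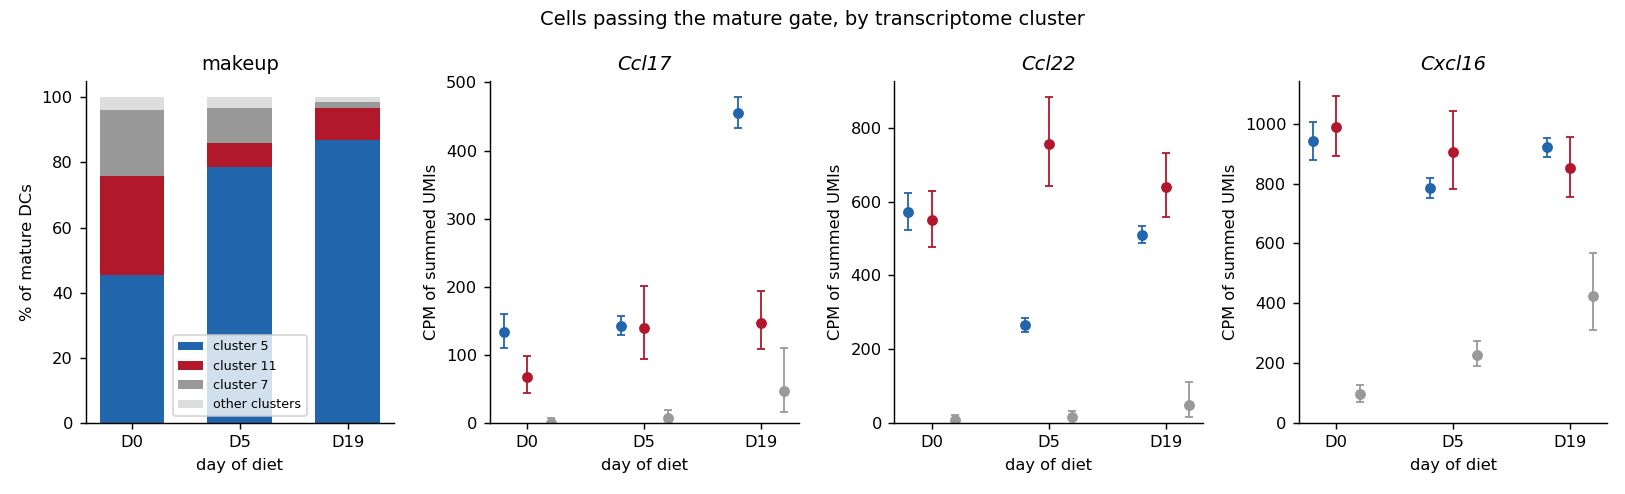
Makeup of gated cells by cluster (percent, left) and levels of the 3 chemokines (CPM) by cluster and day, with 95% Poisson intervals, where cluster 5 is the Clu cluster, 11 the Pla2g7 cluster and 7 the Ifitm1 and Cfp cluster. In the largest cluster Ccl17 was at 133 and 142 CPM at D0 and D5 and at 456 CPM at D19, while Ccl22 was lowest at D5 (265 CPM).

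The antibody split then asked which mature DCs carried each chemokine. CD301b+, XCR1+ and neither DCs numbered 31, 64 and 178 at D0, 47, 51 and 340 at D5, and 238, 164 and 476 at D19, and 1 cell at D19 carried both proteins and was left out. The CD301b+ share of mature DCs was 11.4% (exact Clopper-Pearson interval 7.85 to 15.7%), 10.7% (7.99 to 14.0%) and 27.1% (24.2 to 30.1%). Median RNA depths were 8062, 7883 and 4683.5 UMIs in CD301b+ DCs and 4003, 8215 and 4808 UMIs in XCR1+ DCs.

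Ccl17 was highest in CD301b+ DCs. At D0 it was counted at 178 CPM in CD301b+ DCs (129 to 240), 79.8 in XCR1+ DCs (52.6 to 116) and 57.4 in neither (45.4 to 71.7). At D5 the levels were 425 (364 to 494), 34.4 (18.8 to 57.6) and 85.9 (75.5 to 97.4), and at D19 they were 710 (663 to 759), 149 (124 to 178) and 339 (315 to 364). CD301b+ DCs were highest in each of the 3 libraries, with no overlap of the counting intervals. At D0 they held 43 UMIs in 31 cells. Without the cell with the most UMIs, CD301b+ DCs had 148 CPM at D0 (102 to 207) and XCR1+ DCs 68.6 (43.5 to 103). After thinning in a single random draw, 12.9%, 6.25% and 5.06% of CD301b+, XCR1+ and neither DCs held a Ccl17 UMI at D0, with overlapping intervals. Another draw gave 7 of 31, 2 of 64 and 7 of 178 cells, so the D0 shares moved with the draw. In the former draw the shares at D5 were 23.4%, 1.96% and 6.76% and at D19 44.1%, 9.76% and 21.6%, with CD301b+ DCs apart from the others. XCR1+ DCs were the lowest at D5 and D19 but not at D0, where they rested on 27 UMIs. Without the Ifitm1 and Cfp cluster neither DCs had 89.9, 104 and 353 CPM, below CD301b+ DCs in each library. The log2 ratio of CD301b+ over XCR1+ DCs was 1.16 at D0 (0.43 to 1.91), 3.63 at D5 (2.84 to 4.53) and 2.25 at D19 (1.98 to 2.53).

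Over the 3 libraries, with the library as a block, Ccl17 was 5.08-fold higher in CD301b+ than in XCR1+ DCs by edgeR's quasi-likelihood test (log2 2.34, SE 0.33, adjusted p = 0.000134). It was 1 of 295 genes called higher, 4.5% of the 6552 genes tested, and 4.29% were called lower. Against neither DCs, Ccl17 was 3.47-fold higher in CD301b+ DCs (log2 1.79, SE 0.27, edgeR adjusted p = 0.00469). There only 8 genes were called higher, 0.122% of those tested, and 0.168% were called lower. With 1 library left out, 8 to 187 genes were called there in both directions together. The difference from neither DCs was lost without the D5 library (log2 1.41, edgeR adjusted p = 0.330), and adjusted p ranged from 3.82e-17 to 0.330 over its alternatives. The libraries are also the days, so the test measures how stable a difference was over the 3 libraries and not over mice.

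Ccl22 was found in all 3 subsets, and none of its differences passed the test. Levels at D0 were 606 CPM in CD301b+ (511 to 712), 618 in XCR1+ (537 to 707) and 281 in neither DCs (254 to 311). At D5 they were 415 (354 to 484), 238 (193 to 290) and 226 (208 to 244), and at D19 616 (572 to 662), 370 (330 to 413) and 479 (450 to 509). XCR1+ DCs equalled CD301b+ DCs at D0 within the counting error and lay below them at D5 and D19. The log2 ratios of CD301b+ over XCR1+ DCs were -0.03, 0.80 and 0.73 by library. The test over libraries gave 0.42 (SE 0.23, edgeR adjusted p = 0.313), and 0.72 with an adjusted p of 0.0174 without the D0 library (0.0174 to 0.827 over its alternatives). Against neither DCs, CD301b+ DCs had a log2 difference of 0.89 (SE 0.22, edgeR adjusted p = 0.114) and XCR1+ DCs 0.47 (SE 0.22, edgeR adjusted p = 0.184). Both passed without the D19 library, and the former also with DESeq2, another test. The latter ranged from 0.015 to 0.83 with 1 library left out.

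Cxcl16 was present throughout. CD301b+, XCR1+ and neither DCs had 1066 (940 to 1205), 839 (744 to 943) and 566 CPM (527 to 608) at D0. At D5 the levels were 782 (698 to 874), 736 (655 to 824) and 665 CPM (635 to 695), and at D19 833 (782 to 886), 943 (878 to 1011) and 884 CPM (844 to 924). The order seen at D0 was absent at D19, where XCR1+ DCs had the highest value. Without the Ifitm1 and Cfp cluster neither DCs had 832 CPM at D0, near XCR1+ DCs. The test gave log2 differences of 0.03 for CD301b+ over XCR1+ DCs (SE 0.17, edgeR adjusted p = 0.952), 0.48 for CD301b+ over neither (SE 0.16, edgeR adjusted p = 0.309) and 0.45 for XCR1+ over neither (SE 0.16, edgeR adjusted p = 0.0751). XCR1+ over neither called 7.68% of genes higher and 7.2% lower, none of the 3 chemokines among them, and the Ccl17 difference there was -0.55 (SE 0.32, edgeR adjusted p = 0.291). A missed threshold does not show equal levels.

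**Figure D3:**
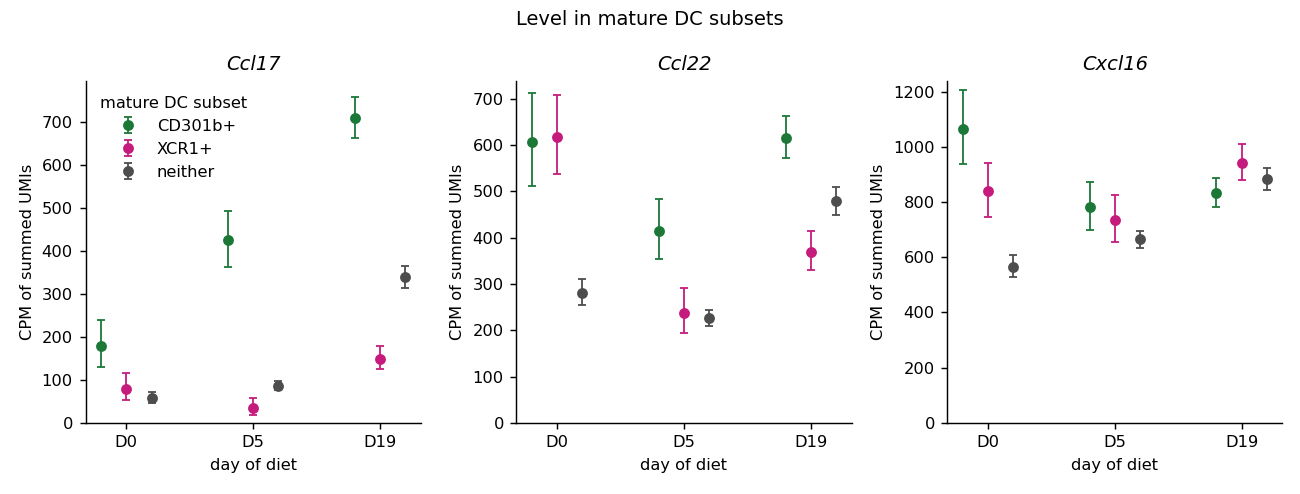
Levels of the 3 chemokines (CPM) in CD301b+, XCR1+ and neither mature DCs at D0, D5 and D19, with 95% Poisson intervals. CD301b+ DCs lay above the other subsets for Ccl17 in each library (178, 425 and 710 CPM), while the subsets lay close together for Cxcl16 at D19 (833 to 943 CPM).

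Ccl17 was then read over bins of the CD301b share of antibody UMIs, and it was higher in each following bin at D19 but not at D0 or D5. At D19 Ccl17 was counted at 253, 324, 434, 620 and 745 CPM in mature DCs with CD301b shares under 2%, 2 to 5%, 5 to 10%, 10 to 20% and 20% or more (465, 108, 67, 78 and 161 cells). The lowest bin took in many XCR1+ DCs, whose median CD301b share was 0.471%. Their Ccl17 was 149 CPM, against 339 CPM in neither DCs. At D0 the same bins had 40.5, 103, 233, 111 and 219 CPM and at D5 58.3, 153, 461, 317 and 489 CPM, with 12 to 31 cells in each bin above 2%. Cells just below the threshold were thus as high as those just above it at D0 and D5. Ccl22 had no such order at D19, at 439, 463, 482, 418 and 704 CPM, and Cxcl16 was at 894, 927, 901, 844 and 831 CPM. With rising XCR1 share, Ccl17 at D19 was 498, 315, 142, 124 and 162 CPM over the same bins (665, 18, 31, 56 and 109 cells).

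**Figure D4:**
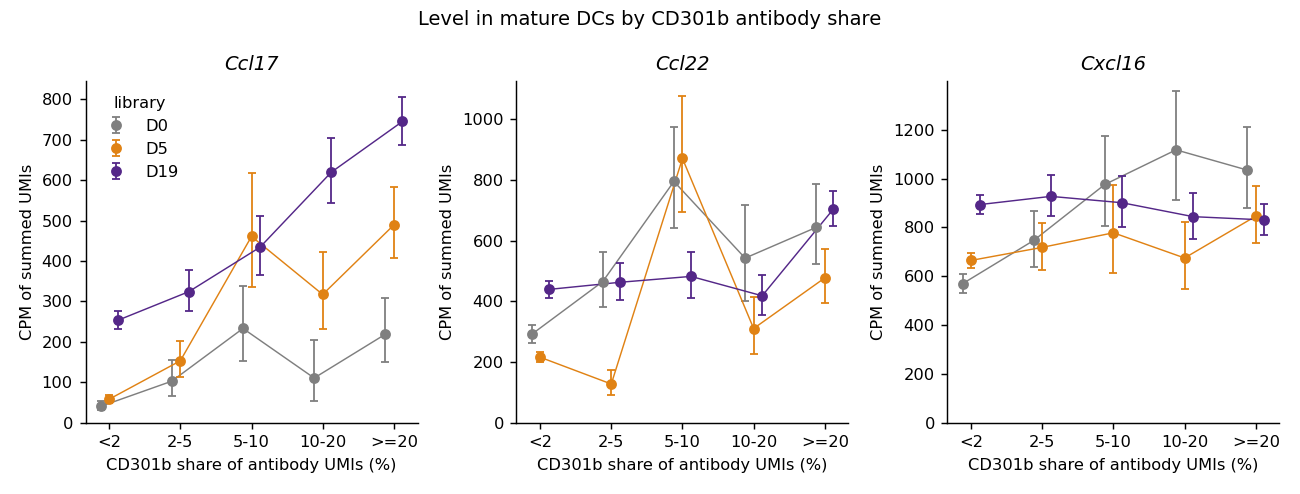
Levels of the 3 chemokines (CPM) in mature DCs binned by the CD301b share of their antibody UMIs, for each CITE-seq library, with 95% Poisson intervals. At D19 Ccl17 went from 253 CPM under 2% to 745 CPM at 20% or more, while Cxcl16 went from 894 to 831 CPM.

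Days were also set against each other within the subsets. The subsets themselves lay in different clusters by day. The Clu cluster held 64.5%, 83.0% and 96.2% of CD301b+ DCs, 39.1%, 76.5% and 87.2% of XCR1+ DCs and 44.4%, 78.2% and 82.1% of neither DCs at D0, D5 and D19, and the Ifitm1 and Cfp cluster held 30.9%, 13.8% and 3.15% of neither DCs. Ccl17 was higher at D19 than at D0 in each of them, 3.98-fold in CD301b+ DCs, 5.90-fold in neither DCs and, short of 2-fold, 1.87-fold in XCR1+ DCs. Genes at least 2-fold higher made up 14.9% in CD301b+, 15.7% in XCR1+ and 7.82% in neither DCs, and no member was 2-fold lower, against 6.39%, 6.01% and 11% of genes. From D0 to D5 the Ccl17 log2 ratio was 1.25 in CD301b+ DCs (0.76 to 1.77), 0.58 in neither (0.21 to 0.97) and -1.22 in XCR1+ DCs (-2.26 to -0.23), the last on 14 UMIs at D5. At D5 against D0, 2-fold higher members were Ccl17 in CD301b+ DCs (7.36% of genes there, 8.77% in XCR1+ and 5.99% in neither DCs). Members 2-fold lower were Ccl17 and Ccl22 in XCR1+ DCs (4.02% of genes there, 3.99% in CD301b+ and 4.46% in neither DCs). Ccl22 was lower at D5 than at D0 in each subset, with log2 ratios of -0.55, -1.38 and -0.32 in CD301b+, XCR1+ and neither DCs. At D19 against D0 it was 0.02 (-0.23 to 0.29) in CD301b+ DCs, -0.74 (-0.996 to -0.479) in XCR1+ DCs and 0.77 (0.60 to 0.94) in neither DCs. From D5 to D19 the Ccl17 ratio was 0.74 in CD301b+, 2.12 in XCR1+ and 1.98 in neither DCs, and the Ccl22 ratio was 1.09 in neither DCs, the 3 values past 2-fold set against 8.38% of genes higher in XCR1+ and 2.74% in neither DCs. In CD301b+ DCs no member was past 2-fold, against 7.81% of genes higher and 5.59% lower, and no member was 2-fold lower in XCR1+ (4.5%) or neither DCs (7.87%). The Cxcl16 ratio of D19 over D0 was -0.36 in CD301b+ DCs, 0.17 in XCR1+ DCs and 0.64 in neither DCs. Without the Ifitm1 and Cfp cluster the D5 over D0 ratio in neither DCs was 0.21 for Ccl17 (-0.16 to 0.60), -0.67 for Ccl22 and -0.13 for Cxcl16, and the D19 over D5 ratio was 1.76, 0.87 and 0.25. The D19 over D0 ratio there was 1.98 for Ccl17 (1.64 to 2.33; 3.93-fold), 0.20 for Ccl22 (0.03 to 0.37) and 0.12 for Cxcl16 (-0.00066 to 0.25), and over all mature DCs it was 2.02, 0.0023 and 0.034. Ccl17 was therefore higher at D19 than at D0 in each subset also without these cells, while the ratios of Ccl22 and Cxcl16 in neither DCs were mostly lost. The CD301b+ share itself was higher at D19, as given above.

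Within single mature DCs the chemokines did not come as a block. The Pearson r of log cell CPM was 0.41, 0.37 and 0.33 for Ccl17 with Ccl22 at D0, D5 and D19 (273, 438 and 879 cells of 1 library each, which share its depth and free RNA). These values pool subsets and clusters. Within CD301b+ DCs r was 0.15, 0.20 and 0.32, within XCR1+ DCs 0.32, 0.34 and 0.41, and within neither DCs 0.48, 0.40 and 0.30. Over all mature DCs r for Ccl17 with Cxcl16 was 0.18, 0.12 and -0.08, and for Ccl22 with Cxcl16 0.35, 0.07 and -0.11. At D19, after another draw of thinning than that of the shares above, 37.7% of 220 cells with a Ccl17 UMI also had a Ccl22 UMI, against 23.5% of 659 cells without. The UMIs were uneven between cells. At D19 the median mature DC had 162 CPM of Ccl17, 165 of Ccl22 and 831 of Cxcl16, and the 10% of cells with the most UMIs of a gene held 53.5%, 59.2% and 26.2% of them. At D0 the same 10% held 84.5% of Ccl17 UMIs, and 1 cell held 13.5%.

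Across cell types the genes most like each member were found among 13343 genes by Pearson r of log2 CPM with 10 added, over 26 sums of a lineage in a library (10 lineages, 3 libraries, which share their depth and free RNA). Ccl17 was most like Gm13571, Strip2, Gm47957, Apol7c and Mex3b (r 0.89 to 0.86). Ccl22 was most like Rragd, Cacnb3, Dscaml1, Ltc4s and Cdkn2a (0.98 to 0.97), and Cxcl16 was most like C9orf72, Basp1, Iscu, Mtmr4 and Pfkfb3 (0.92 to 0.88). The members themselves correlated at 0.78 (Ccl17 with Ccl22), 0.78 (Ccl17 with Cxcl16) and 0.72 (Ccl22 with Cxcl16), and no member was among the 5 genes most like another.

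The other chemokine ligands placed the members within the DC output. Of 30 listed, 12 had enough UMIs for the subset test. In CD301b+ over XCR1+ DCs 4 were higher and 2 lower, where 4.5% of all genes were called higher and 4.29% lower, with a median log2 difference of 1.54 against 0.03 for all genes tested. Cxcl2 and Cxcl1, ligands of CXCR2 that draw neutrophils, had log2 differences of 3.61 and 2.82, and Ccl3 and Ccl9 by 2.63 and 2.00. The lower ones were Ccl19, a ligand of CCR7 (-2.29), and Ccl5, the most abundant of them at 8780, 7030 and 10688 CPM in all mature DCs (-0.80). Against neither DCs, Cxcl1 alone was higher in CD301b+ DCs (2.79), against 0.122% of all genes. In XCR1+ over neither DCs Ccl19 and Ccl5 were higher (1.28 and 1.05), and Ccl3, Cxcl10, Cxcl2, Ccl4 and Ccl9 were lower (-3.45 to -1.37), against 7.68% of all genes higher and 7.2% lower, with a list median of -0.89 against -0.05 for all genes.

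The other chemokines were also compared by day. From D0 to D19 3 of 15 counted were at least 2-fold higher (Cxcl13, Cxcl9 and Ccl25, on 18, 55 and 29 UMIs at D19 and 2, 8 and 6 at D0) and 3 lower (Ccl4, Xcl1 and Ccl3), against 7.33% and 9.48% of all genes, with a median log2 ratio of 0.28 against -0.02 for all genes. Ccl4 was the clearest of these, at 356, 76.0 and 15.2 CPM at D0, D5 and D19, and Cxcl1 was at 117, 15.04 and 103 CPM. From D0 to D5 3 of 14 were higher (Cxcl9, Ccl25 and Ccl9) and 3 lower (Cxcl1, Ccl3 and Ccl4), against 6.19% and 3.68% of all genes. The monocyte or macrophage markers fell over the same days, as given above. The 5 NK cell markers of gated cells summed to 41.8 CPM at D0 and 19.4 CPM at D5, and the gate excluded no NK cell gene. NK cells made up 7.11%, 2.16% and 2.79% of the cells at D0, D5 and D19. The part of monocyte, macrophage or NK cell RNA in these values was not tested.

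Of the maturation genes all 20 were tested, among them the gate genes Ccr7 and Fscn1, on which the cells were selected and whose values are no finding. In CD301b+ over XCR1+ DCs Cd274, which encodes PD-L1, Cd83 and Birc2 were higher (0.89, 0.73 and 0.67), and Il12b, Tnfrsf4 and Il15ra were lower (-2.31, -1.74 and -1.10), against 4.5% and 4.29% of all genes, with a median of -0.05. Il12b encodes a subunit of IL-12 that is not found in IL-12 alone, so its RNA does not specify that cytokine. None of the 20 passed in CD301b+ over neither DCs, where 0.122% of all genes were called higher and 0.168% lower. In XCR1+ over neither DCs 7 were higher, among them Il12b, Tnfrsf4 and Il15ra (2.32, 1.78 and 1.15), and Cd274 was lower, against 7.68% and 7.2% of all genes, with a median of 0.26. The gate gene Fscn1 was among the 7. By day Il15ra and Cd200 were at least 2-fold higher at D19 than at D0 and Pdcd1lg2 was lower, against 7.33% and 9.48% of all genes, with a median of 0.05. From D0 to D5 Cd80 was higher, and Il12b and Pdcd1lg2 were lower, against 6.19% and 3.68%.

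Of 15 genes of signalling that has been linked to these chemokines, all were tested. Klf4, a transcription factor needed for part of the cDC2 lineage, was higher in CD301b+ than in XCR1+ DCs (1.64), and Il4ra, a receptor chain for IL-4 and IL-13, was lower (-1.21), 1 of 15 each way against 4.5% and 4.29% of all genes, with a list median of 0.23. Factors of DC lineages were among them. Irf8, a factor of cDC1, was higher in XCR1+ than in neither DCs (1.25, SE 0.25, edgeR adjusted p = 0.00221), and Il4ra was also higher there (1.15) and Klf4 lower (-1.64), against 7.68% of all genes higher and 7.2% lower. By library Irf8 was at 514, 228 and 211 CPM in XCR1+ DCs and at 154, 259 and 143 CPM in CD301b+ DCs, which were the higher at D5. Batf3, also a factor of cDC1, had a difference of -0.13 for XCR1+ over neither DCs (SE 0.16, edgeR adjusted p = 0.669) and 0.35 for CD301b+ over XCR1+ DCs (SE 0.17, edgeR adjusted p = 0.252). Irf4, a factor of cDC2, had a difference of 0.97 for CD301b+ over XCR1+ DCs (SE 0.40, edgeR adjusted p = 0.158). None of the 15 passed in CD301b+ over neither DCs, against 0.122% of all genes higher and 0.168% lower. By day Map3k14, the kinase of the non-canonical NF-κB pathway, was 2-fold or more higher at D19 than at D0 (36.1, 59.6 and 95.2 CPM), and Klf4 was lower (258, 121 and 104 CPM), against 7.33% and 9.48% of all genes.

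The receptors were counted mainly in lymphocytes. Ccr4 was rare, at 1.97, 2.37 and 1.90 CPM in T cells at D0, D5 and D19 and with no UMI in mature DCs, B cells or NK cells. In T cells with a Foxp3 UMI it was counted 2, 6 and 4 times, or at 4.00, 16.3 and 9.62 CPM, too few to order the days. Cxcr6 was at 67.8, 57.8 and 17.99 CPM in T cells and at 35.9, 15.7 and 24.4 CPM in NK cells, and at 5.68, 3.83 and 4.52 CPM in mature DCs. Cxcr6 was thus lowest in T cells of the D19 library. T cells of the γδ T cell pools were assigned by the T cell markers and not by Trdc. In them Cxcr6 was at 122 CPM at D0, 146 at D5, 161 in D5-DT, 153 at D19 and 218 in STOP, and Ccr4 at 5.32, 4.64, 6.06, 8.51 and 15.03 CPM. Adam10 and Adam17, the shedding proteases, were at 46.5, 60.2 and 48.1 CPM and at 26.8, 31.5 and 27.9 CPM in mature DCs.

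Mature DCs were also present in the LN γδ T cell pools, where they had passed a T cell sort. They numbered 3 at D0, 89 at D5, 40 at D19, 147 in STOP and 22 in D5-DT. No ratio is given for D0, whose 3 cells held 0, 11 and 9 UMIs of Ccl17, Ccl22 and Cxcl16. Antibodies other than hashtags were not measured, and Mgl2 was counted 0 times at D5, 0 times in D5-DT and 0 times in STOP, so loss of Mgl2-expressing cells cannot be judged from them.

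Ccl17 was counted at 58.3 CPM at D5 (41.8 to 79.1), 504 at D19 (422 to 597), 232 in STOP (208 to 258) and 672 in D5-DT (572 to 784). Ccl22 was at 169 (140 to 202), 384 (313 to 466), 654 (613 to 698) and 734 CPM (630 to 851), and Cxcl16 at 999 (927 to 1076), 1034 (915 to 1164), 935 (885 to 987) and 834 CPM (723 to 958). Ccl17 and Ccl22 thus differed between arms, while Cxcl16 stayed within 834 to 1034 CPM. After recovery the first 2 went opposite ways. The log2 ratio of STOP over D19 was -1.12 for Ccl17 (-1.41 to -0.82), 0.77 for Ccl22 (0.47 to 1.08) and -0.15 for Cxcl16 (-0.33 to 0.05). In this comparison 11.2% of all genes were at least 2-fold higher and 11.6% at least 2-fold lower, Ccl17 being the only member past that size. Without the cell with the most UMIs in each arm, which held 113 of the 330 Ccl17 UMIs in STOP, the Ccl17 ratio was -1.60.

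The STOP cells differed in other genes too. Of 8 other chemokines counted 4 were at least 2-fold higher in STOP (Cxcl2, Cxcl1, Ccl11 and Cxcl9, the last counted 48 times in STOP and 0 times at D19) and Cx3cl1 was lower, with a median log2 ratio of 1.16 against -0.10 for all genes, of which 11.2% were at least 2-fold higher and 11.6% lower. Of the 20 maturation genes 5 were higher, led by Il12b at 3.49, and Cd200 was lower. Klf4, Il4ra and Irf8 of the signalling genes were higher. Fibroblastic stroma markers summed to 806 CPM in STOP with none of the 5 at 0 and to 3.76 CPM at D19 with 4 at 0, and monocyte or macrophage markers to 390 and 37.6 CPM, with none and 2 of 5 at 0. The 5 resident cDC1 markers summed to 61.9 CPM in STOP with none at 0 and to 0 at D19, and Xcr1 was counted 43 times in STOP and 0 times at D19, beside the low Ccl17 of XCR1+ DCs at D5 and D19. Their part in the differences was not tested.

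In D5-DT over D5 the log2 ratio was 3.53 for Ccl17 (3.02 to 4.06), 2.12 for Ccl22 (1.77 to 2.47) and -0.26 for Cxcl16 (-0.49 to -0.03). In all, 5.04% of genes were at least 2-fold higher, Ccl17 and Ccl22 among them, and 7.24% were lower. The value rested on few cells. A cell with 2 or more T cell markers held 125 of the 161 Ccl17 UMIs in D5-DT, 77.6%, and without the cell with the most UMIs in each arm the ratio was 1.96. Of the 22 cells 7 carried 2 or more monocyte or macrophage markers, which summed to 4684 CPM in D5-DT and 42.6 CPM at D5 with none of the 5 at 0 in either. Without such cells the ratio was 4.00 for Ccl17 and 2.47 for Ccl22. The cells left still held the T-marker cell above and the cell with the most Ccl22 UMIs (56 of 176), also with T cell markers. Cells with 2 or more T cell markers numbered 5 of 22 in D5-DT and 8 of 89 at D5. A Trdc UMI was found in 10 and 24 cells. The part of cells with T cell markers in the ratios was not tested. The share of cells with a Ccl17 UMI was 31.8% in D5-DT (13.9 to 54.9%) and 13.5% at D5 (7.17 to 22.4%) at median depths of 10488 and 7940 UMIs. After thinning it was 9.09% (1.12 to 29.2%) and 2.25% (0.273 to 7.88%), 2 cells each, with overlapping intervals. Another thinning draw gave 3 cells each. Cxcl9 was counted 163 times in D5-DT and 0 times at D5.

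**Figure D5:**
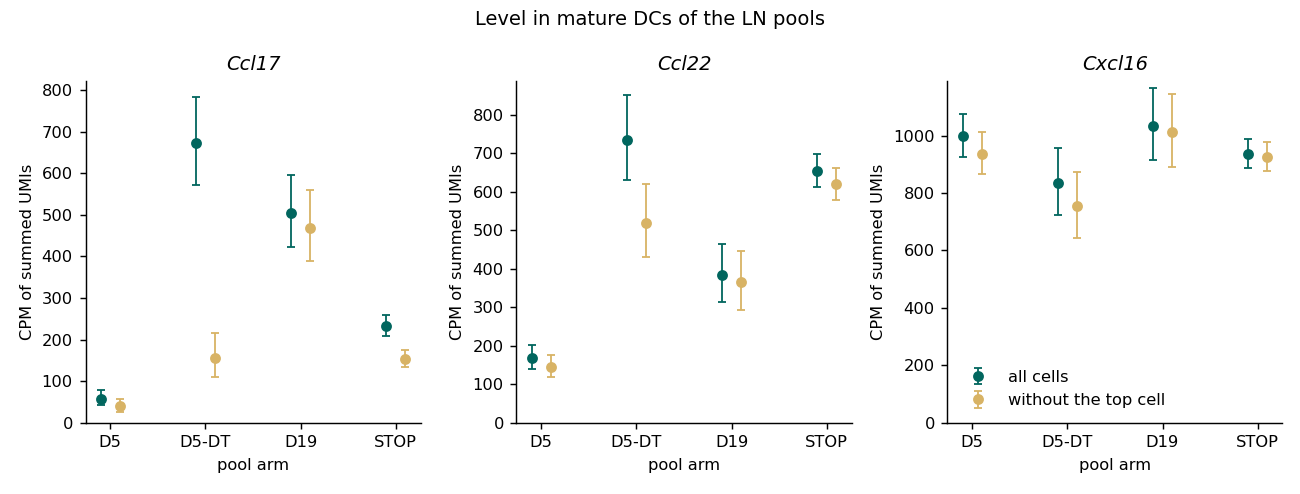
Levels of the 3 chemokines (CPM) in mature DCs of the LN γδ T cell pools by hashtag arm, with 95% Poisson intervals and the level without the cell that held the most UMIs of the gene. Without that cell Ccl17 in D5-DT was 156 CPM in place of 672, and Cxcl16 stayed at 753 CPM or more in each of the D5, D19, STOP and D5-DT arms.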

How the data were processed

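The authors had sequenced 10x Genomics 3' libraries with antibody or hashtag tags and mapped RNA and tags with Cell Ranger (listed as version 6.0.0, build mm10). The files deposited by the authors were unfiltered matrices of UMI counts, RNA and tags together or side by side for each barcode. RNA totals were 13074668 to 71447265 UMIs per library. Barcodes with at least 1000 UMIs, 500 genes and at most 10% mitochondrial UMIs were kept as cells. The highest Scrublet scores were left out at 0.8% per 1000 cells (scanpy 1.11.5), and hashtags were assigned by centred log ratios and k-means (scikit-learn 1.9.0). Multiplets were left out. Clusters used leidenalg 0.10.2 on 2000 variable genes without the 3 chemokines, at a resolution of 1.

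Other lineages needed at least 2 of 5 markers and more than of any other lineage. Counts were summed over the cells of a group and scaled to CPM, with 95% exact intervals (scipy 1.17.1). Thinned shares are from a single random draw, and their intervals leave out the spread between draws. Pairs of members in a cell were read in another draw. Ratios have exact conditional intervals. Subsets were compared with edgeR 4.0.16 under R 4.3.3 on 9 sums (3 libraries, 3 subsets), TMM scaling, filterByExpr, the library as a block and Benjamini-Hochberg adjustment at 0.05. The fit had 4 residual degrees of freedom, and the script was tested on simulated data. DESeq2 1.42.0 was an alternative. Days and arms have no replicate and no test. For their gene counts, genes needed 20 UMIs over both groups and a 2-fold ratio. Nothing says that libraries came from separate mice in any number, so p-values measure the spread between these libraries. Members, gene lists and tests were chosen with earlier results of these data known. Named genes were the members, their receptors and proteases, gate and split genes, the 5 genes most like each member, and up to 4 with the largest change of a list, and further names were chosen after their values were seen. Liver cells and liver pools were not used here.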

Additional observations from a re-analysis of the deposited data

Results flagged for a closer look

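Each of the following is a pair of day ratios that went opposite ways in 2 subsets of mature DCs, every day being 1 library. The differences between the subsets were not tested. The log2 ratio of Ccl17 for D5 over D0 was 1.25 in CD301b+ and 0.58 in neither DCs but -1.22 in XCR1+ DCs, where it rested on 14 and 27 UMIs. For Ccl22, D19 over D0 was 0.77 in neither DCs and -0.74 in XCR1+ DCs. For Cxcl16, D19 over D0 was 0.64 in neither DCs and -0.36 in CD301b+ DCs, and D5 over D0 was 0.23 and -0.45. Without the Ifitm1 and Cfp cluster the ratios in neither DCs were 0.21 for Ccl17 (D5 over D0, interval -0.16 to 0.60), 0.20 for Ccl22 (D19 over D0) and 0.12 and -0.13 for Cxcl16 (D19 and D5 over D0).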

How the results depend on the processing

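Leaving out 1 library at a time moved the log2 difference of CD301b+ over XCR1+ DCs from 1.78 to 2.70 for Ccl17, which remained past the threshold, from 0.26 to 0.72 for Ccl22, which passed without D0, and from -0.10 to 0.16 for Cxcl16. For CD301b+ over neither DCs the ranges were 1.41 to 2.20 for Ccl17, lost without D5, and 0.74 to 1.11 for Ccl22 and 0.21 to 0.70 for Cxcl16, both past it without D19. For XCR1+ over neither DCs they were -0.94 to -0.15 for Ccl17, past it without D0, and 0.015 to 0.83 for Ccl22 and 0.31 to 0.53 for Cxcl16, both past it without D19. Ccl22 in CD301b+ over neither DCs also passed with DESeq2 (0.90) and without a filter on low counts (0.85), and Cxcl16 in XCR1+ over neither DCs without a doublet filter (0.52). Genes called ranged from 174 (without D5) to 579 against 576 for CD301b+ over XCR1+, from 8 (without D5) to 187 (without D19) against 19 for CD301b+ over neither, and from 276 (without D5) to 950 against 975 for XCR1+ over neither DCs. CD301b+ over neither gave 12 at an antibody share of 0.05 and 144 without the filter. The cause of these changes was not tested.

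Of the day ratios, a gate at 2 UMIs gave -0.83 for Ccl22 and -0.19 for Cxcl16 (D5 over D0) and 0.17 and 0.11 (D19 over D0). Clusters in place of the gate gave -0.85 and -0.25 for D5 over D0, reversed D19 over D0 to -0.13 for Ccl22 and -0.024 for Cxcl16 with Ccl17 at 1.82, and gave 1.45, 0.72 and 0.23 for Ccl17, Ccl22 and Cxcl16 at D19 over D5. Means of cell CPM gave 0.28 for Cxcl16 at D19 over D0 and 1.18 for Ccl22 in STOP over D19. As alternatives chosen after seeing the data, leaving out the cell with the most UMIs gave -1.60 (STOP over D19) and 1.96 (D5-DT over D5) for Ccl17, leaving out gated cells of the Ifitm1 and Cfp cluster gave -0.82 for Ccl22 and -0.19 for Cxcl16 (D5 over D0), 2.02, 0.0023 and 0.034 for Ccl17, Ccl22 and Cxcl16 (D19 over D0) and 1.61, 0.82 and 0.22 (D19 over D5), and reversed Cxcl16 in neither DCs to -0.13 (D5 over D0), and leaving out cells with monocyte or macrophage markers gave 2.47 for Ccl22 (D5-DT over D5). Over its alternatives Ccl17 kept its direction in each comparison of days and arms over all mature DCs.

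The shares of UMIs in mature DCs moved past their intervals in 11 of 36 values, most without a doublet filter or with a gate at 2 UMIs, and lay between 54.7% and 80.3% over their alternatives. Few cells limit some values. D0 of the pools, with 3 cells, was not set against D5, and Ccl17 in XCR1+ DCs rested on 14 UMIs at D5. The library was the block of the subset test, and no fit without it was made, since each library gives all 3 subsets.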
